A study of Homo sapiens with 6 samples.

Results

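The genes described here are 41 human genes of fatty acid synthesis, desaturation, oxidation, lipolysis and lipid droplets, chosen by symbol for what they are known to do. All 41 were found among the 58735 genes of the deposited expression table. The study sequenced RNA from SW480, an established line of human colorectal adenocarcinoma cells, to ask which transcripts change when DDX39B, an RNA helicase of mRNA splicing and nuclear export, is overexpressed. There were 6 libraries, 3 from cells whose genotype label is DDX39B overexpression and 3 from control cells. All were grown in L-15 medium with serum, RNA was taken with an RNeasy kit and libraries were made with a SMARTer kit. How DDX39B was overexpressed, what the control cells carried, and whether each library came from a culture of its own was not given in the sources used here, so p-values below measure the spread between these libraries, which may be technical. Values are FPKM, reads per kilobase of gene, scaled by the authors for the size of the library, and levels of different genes are compared only on this scale.

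DDX39B itself went against the labels. It measured 15.02, 13.9 and 14.03 FPKM under the overexpression label, against 39.3, 34.6 and 41.9 FPKM under the control label, a 2.70-fold lower level. Each group is for that reason named by its label, and every direction follows the labels as they stand. The epithelial genes KRT19, at 500.2 FPKM under the overexpression label and 0.251 FPKM under the control label, and EPCAM, at 171 FPKM under the overexpression label and 2.72 FPKM under the control label, also differed widely. An exchange of labels, groups that come from different cells and an effect of the treatment cannot be told apart here, and this holds for every fold below. The libraries held 16963075 to 17463697 reads, and 76.8% of the 13972 genes tested differed between the groups in limma with an adjusted p under 0.05. Of 12 markers of colon epithelium, 7 reached 1 FPKM under the overexpression label and 3 under the control label. Their summed level was 1972 to 1996 FPKM under the overexpression label and 358 to 430.3 FPKM under the control label. That sum was carried by KRT8, KRT18, KRT19 and EPCAM under the overexpression label, and by KRT8 and KRT18 under the control label. KRT20 was 14.2-fold lower, with 6 reads under the overexpression label and 80 under the control label. CDX1 was at 0 in both groups. CDX2 and GPA33 were at 0 under the control label, with 4.80 FPKM and 0.105 FPKM under the overexpression label. Defining markers of the labelled tissue were thus missing, CDX1 from both groups and CDX2 and GPA33 from the control-labelled group. GPA33 was near absent under the overexpression label too, with 18 reads. CDH17 and LGALS4 were near absent from both groups. CDH17 was at 0.168 FPKM under the overexpression label and 0.0717 FPKM under the control label, and LGALS4 at 0.155 FPKM under the overexpression label and 0.0299 FPKM under the control label. The summed level of 6 adipocyte markers was 0.030 to 0.12 FPKM under the overexpression label and 0.062 to 0.19 FPKM under the control label. That of 5 endothelial markers was 1.04 to 1.43 FPKM under the overexpression label and 35.9 to 50.5 FPKM under the control label, almost wholly through ESAM, at 0.678 FPKM under the overexpression label and 43.5 FPKM under the control label. VWF, in the same list, was 12.7-fold higher, at 0.586 FPKM under the overexpression label and 0.0462 FPKM under the control label. Of 6 hepatocyte markers only SERPINA1 reached 1 FPKM, at 52.7 FPKM under the overexpression label and 0.0658 FPKM under the control label. The 7 leukocyte markers were all under 1 FPKM in both groups. The part of these differences in the results below was not tested, and in bulk RNA a smaller number of cells of a type and less RNA per cell cannot be told apart.

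Fatty acids are built in the cytosol from acetyl-CoA, with reducing power from NADPH, then lengthened and desaturated in the endoplasmic reticulum. To be used, a fatty acid is joined to coenzyme A by an acyl-CoA synthetase. It is then stored as triglyceride in lipid droplets, placed in membranes, or carried by the carnitine shuttle into mitochondria, where it is shortened step by step to acetyl-CoA. Lipases release fatty acids from stored or circulating lipid. The colon epithelium is supplied from the blood and, on the side of the lumen, with short-chain fatty acids of the gut flora, and many carcinomas raise synthesis of their own.

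Of the 41 genes, 38 averaged 1 FPKM or more over the 6 libraries and were tested. Among these 38, 14 were higher and 16 were lower under the overexpression label at an adjusted p under 0.05 (limma on log2(FPKM + 1), two-sided, Benjamini-Hochberg adjustment over all 13972 genes tested), and 8 did not pass. The 30 that passed make 78.9% of those tested, beside 76.8% of all genes tested, where 37.5% were higher and 39.3% lower. At least a 2-fold difference on this scale was reached by 12 of the 38 (31.6%, beside 31.2% of all genes tested), and in 32 (84.2%, beside 80.1%) the groups did not overlap. As a group the fatty acid genes thus stood near the background of a comparison in which most genes differed, and the median log2 fold change was -0.11 for them and -0.03 for all genes tested. The remaining 3 genes, CD36, FABP1 and CPT1B, lay under this filter. Without it all 41 were tested and 16 were higher and 17 lower, beside 44.5% of 33913 genes past the threshold. Of the 38, 5 (LPL, LIPG, ACSL1, CPT2 and DGAT2) were under 1 FPKM in 1 of the groups, so they passed the filter through the other. The acyl-CoA synthetases, desaturases, elongases and lipases each held genes that moved in opposite directions, as the plot of levels by library shows. With similar shares of all genes higher and lower, nothing particular to these families is read from that. Folds given below are ratios of mean FPKM, and log2 fold changes are on the log2(FPKM + 1) scale, which understates the change of low genes.

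**Figure D1:**
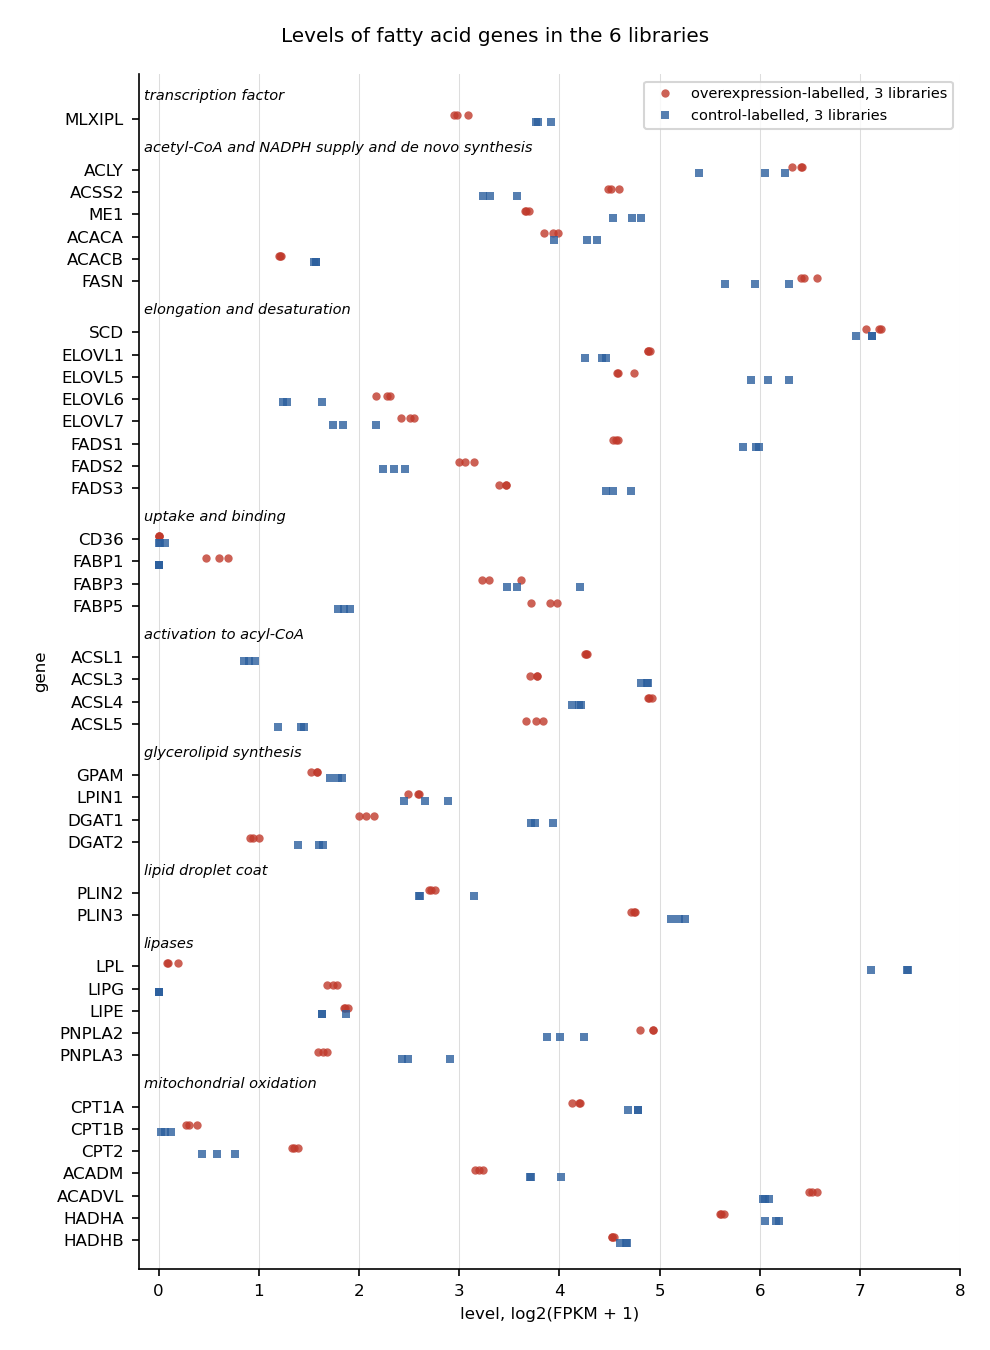
Level of each of the 41 genes in the 6 libraries, as log2(FPKM + 1) on the horizontal axis, with genes grouped by role down the page; red points are the 3 overexpression-labelled and blue squares the 3 control-labelled libraries. LPL spans the widest gap, with a mean of 0.0898 FPKM under the overexpression label and 163 FPKM under the control label, and the 3 points of the overexpression-labelled group mostly lie closer together than those of the other.

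MLXIPL encodes ChREBP, a transcription factor that switches on glycolytic and lipogenic genes when glucose is plentiful. It was 6.88, 7.50 and 6.71 FPKM under the overexpression label, against 12.8, 12.6 and 14.1 FPKM under the control label. All 3 overexpression-labelled libraries lay below all 3 others, and the gene was 1.88-fold lower (log2 fold change -0.82, SE 0.068, adjusted p = 4.01e-05).

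Of the 6 genes that supply acetyl-CoA and NADPH or build palmitate, 2 were higher, 2 were lower and 2 did not pass. Of all genes tested, 37.5% were higher and 39.3% lower. The larger rise was in ACSS2, which makes cytosolic acetyl-CoA from acetate. ACSS2 had 23.2, 21.4 and 21.9 FPKM under the overexpression label, against 8.90, 8.43 and 10.9 FPKM under the control label, without overlap. It was 2.35-fold higher (log2 fold change 1.16, SE 0.095, adjusted p = 3.84e-05). ACLY, which makes the same acetyl-CoA from citrate, had 83.8, 79.1 and 84.8 FPKM under the overexpression label and 65.4, 74.9 and 41.0 FPKM under the control label. The groups did not overlap, but the control-labelled values were widely spread, with the lowest in library 3, and the difference did not pass (log2 fold change 0.49, 95% interval -0.012 to 0.99, adjusted p = 0.0689). Leaving out control-labelled library 3 gave a smaller log2 fold change of 0.23 that passed (adjusted p = 0.0208 in limma), and leaving out control-labelled library 2 gave 0.66 (adjusted p = 0.0197).

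ME1, the cytosolic malic enzyme that yields NADPH, went the other way. It had 11.9, 11.6 and 11.7 FPKM under the overexpression label, against 25.5, 22.1 and 27.2 FPKM under the control label, a level 2.12-fold lower (log2 fold change -1.02, SE 0.080, adjusted p = 2.99e-05). The overexpression-labelled libraries were nearly alike, and all lay below the control-labelled ones. ACACA, the cytosolic acetyl-CoA carboxylase that commits carbon to synthesis, was 14.8, 13.3 and 14.3 FPKM under the overexpression label and 18.3, 19.7 and 14.4 FPKM under the control label. These groups overlapped through control-labelled library 3, and the difference did not pass (log2 fold change -0.28, SE 0.11, adjusted p = 0.0611). Without that library the log2 fold change was -0.40 and passed (adjusted p = 0.0014 in limma). ACACB is the carboxylase at the mitochondrial surface, whose product malonyl-CoA restrains entry of fatty acids into mitochondria. It was low in both groups, at 1.33, 1.32 and 1.30 FPKM under the overexpression label and 1.98, 1.93 and 1.96 FPKM under the control label, and was 1.49-fold lower without overlap (adjusted p = 0.00214, limma). Of the summed level of the 2 carboxylase genes, ACACA made 91.5% ± 0.44 under the overexpression label and 89.8% ± 1.6 under the control label (SD, n = 3 each, exact permutation p = 0.2).

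FASN, the synthase that assembles palmitate, was among the most abundant of the 41 genes. It had 85.5, 83.9 and 93.8 FPKM under the overexpression label, against 60.7, 77.2 and 49.3 FPKM under the control label. The groups did not overlap, although the highest control-labelled library came close to the lowest overexpression-labelled one. FASN was 1.41-fold higher (log2 fold change 0.51, SE 0.15, adjusted p = 0.0210). This call was lost when overexpression-labelled library 1 or 3 or control-labelled library 1 was left out, with adjusted p-values from limma of 0.0522, 0.0706 and 0.0605. Control-labelled library 3 was the lowest of the 6 for both ACLY and FASN.

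The 8 genes that lengthen or desaturate fatty acids included 4 that were higher, 3 that were lower and SCD, which did not pass. Those that passed made 87.5% of the 8, beside 76.8% of all genes tested. SCD places the first double bond in saturated fatty acids and had the highest mean level of the 41 genes under the overexpression label, at 141 ± 7.7 FPKM, beside 133 ± 8.4 FPKM under the control label (SD, n = 3 each). The overlap of the groups rested on overexpression-labelled library 2, and the log2 fold change was 0.09 (95% interval -0.077 to 0.25, adjusted p = 0.281). With FPKM rescaled to the sum of reads, quantile normalization or voom SCD passed, with log2 fold changes of 0.18 to 0.19 (adjusted p = 0.0268 to 0.0476, limma).

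Desaturation of polyunsaturated fatty acids relies on FADS2, which acts first on dietary precursors, and FADS1, which acts after an elongation step and completes arachidonic acid. FADS1 had 22.7, 22.1 and 23.0 FPKM under the overexpression label, against 62.5, 56.0 and 61.2 FPKM under the control label. It was 2.65-fold lower (log2 fold change -1.37, SE 0.057, adjusted p = 1.51e-06). FADS2 had 7.85, 7.01 and 7.33 FPKM under the overexpression label, against 4.11, 4.49 and 3.73 FPKM under the control label, and was 1.80-fold higher (log2 fold change 0.72, SE 0.077, adjusted p = 1.47e-04). Neither gene's groups overlapped, so these neighbours moved in opposite directions. The level of FADS1 over that of FADS2 was 2.89, 3.16 and 3.15 under the overexpression label, against 15.2, 12.5 and 16.4 under the control label. FADS3, the third gene of the cluster, followed FADS1, with 9.50, 10.0 and 10.0 FPKM under the overexpression label and 22.2, 21.0 and 25.3 FPKM under the control label, and was 2.32-fold lower (adjusted p = 1.46e-05, limma).

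FADS1 lies on the minus and FADS2 on the plus strand of chromosome 11, and in the annotation of the table all 29694 bases of FADS1 lie within the span of FADS2. Reads from the shared stretch cannot be assigned to a strand here, because whether the counting used strand is not given in the sources used here, and FEN1 also overlaps FADS2 over 4265 bases. By the RefSeq starts, which lie inside the longer spans of the table for every gene whose window is printed here, FADS1 begins 800 bases to the right of FADS2 and the 5′ ends of the genes overlap. Their promoter windows are printed because the genes are neighbours that moved apart. Each runs 5′ to 3′ on its gene's strand from 250 bases before to 50 after the start farthest upstream, from RefSeq on GRCh38.p14. The FADS1 window is chr11:61816954-61817253 (minus) and the FADS2 window is chr11:61815953-61816252 (plus). Capitals mark CCAAT, the box bound by the factor NF-Y, and GGGCGG, the GC box bound by Sp factors, on either strand.
FADS1 promoter: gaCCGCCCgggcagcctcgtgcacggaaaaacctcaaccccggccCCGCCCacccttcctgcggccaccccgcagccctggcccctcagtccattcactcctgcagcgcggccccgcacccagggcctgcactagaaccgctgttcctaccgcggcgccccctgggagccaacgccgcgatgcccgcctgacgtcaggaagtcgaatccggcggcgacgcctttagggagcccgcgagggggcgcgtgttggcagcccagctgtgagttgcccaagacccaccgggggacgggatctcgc
FADS2 promoter: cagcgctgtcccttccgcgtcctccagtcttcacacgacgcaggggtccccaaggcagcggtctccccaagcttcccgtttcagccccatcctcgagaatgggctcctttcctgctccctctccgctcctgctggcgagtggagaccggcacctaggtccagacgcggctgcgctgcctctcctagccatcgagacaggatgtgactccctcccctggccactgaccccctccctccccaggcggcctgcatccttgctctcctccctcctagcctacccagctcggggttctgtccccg
The FADS1 window holds 2 GC boxes and no CCAAT, and the FADS2 window holds neither. Of 35116 windows of this length in the table, 34.6% hold CCAAT and 45.0% hold GGGCGG on either strand. Windows were found for 34 of the 41 genes, and of their 54 windows 35.2% hold CCAAT and 59.3% hold GGGCGG.

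The elongases split in the same manner. ELOVL5, which lengthens polyunsaturated fatty acids, had 22.7, 22.9 and 25.8 FPKM under the overexpression label, against 66.6, 59.0 and 77.3 FPKM under the control label. It was 2.84-fold lower (log2 fold change -1.46, SE 0.11, adjusted p = 2.07e-05). ELOVL1, ELOVL6 and ELOVL7, which act on saturated and monounsaturated chains, were higher. ELOVL3, an elongase among the further genes described below, was lower, so no rule by type of chain is read from these directions. ELOVL1, which makes very long chains, had 28.9, 28.4 and 28.5 FPKM under the overexpression label and 20.5, 21.1 and 18.1 FPKM under the control label, 1.44-fold higher (adjusted p = 3.97e-04, limma). ELOVL6, which extends palmitate to stearate, had 3.85, 3.51 and 3.97 FPKM under the overexpression label and 1.37, 2.09 and 1.43 FPKM under the control label, 2.31-fold higher (adjusted p = 4.67e-04, limma). ELOVL7, another elongase of long saturated chains, was 1.65-fold higher, at 4.62 ± 0.25 FPKM under the overexpression label and 2.81 ± 0.61 FPKM under the control label (SD, n = 3 each, adjusted p = 0.00392, limma). None of the 4 elongases ELOVL1, ELOVL5, ELOVL6 and ELOVL7 overlapped between groups. ELOVL5 made 39.1% ± 1.6 of their summed level under the overexpression label and 73.3% ± 3.6 under the control label, while ELOVL1 made 47.1% ± 1.6 of it under the overexpression label and 21.8% ± 3.5 under the control label (SD, n = 3 each). For both shares the exact permutation p was 0.1, the smallest that 3 libraries against 3 allow.

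Of the 4 genes of uptake and intracellular binding, CD36 and FABP1 averaged under 1 FPKM over the 6 libraries, and FABP3 and FABP5 averaged above it. CD36, a fatty acid translocase of the plasma membrane, had 0 reads under the overexpression label and 1, 2 and 8 reads under the control label. Set against 3 reads for the group, the floor used here, this is at least 3.92-fold lower. Without the filter on low values it did not pass (log2 fold change -0.029, adjusted p = 0.353, limma), and 8 of the 11 reads came from control-labelled library 3, without which the count is at the floor. FABP1, the fatty acid binding protein of liver and intestinal epithelium, showed the opposite pattern, with 17, 23 and 27 reads under the overexpression label and 0 under the control label. At a mean of 0.506 ± 0.11 FPKM it was at least 20.8-fold higher, and it passed without the filter (log2 fold change 0.59, adjusted p = 6.49e-04, limma). The part of the colon epithelial markers in it was not tested. FABP3, the heart form, had 11.2, 8.36 and 8.84 FPKM under the overexpression label and 10.9, 10.1 and 17.5 FPKM under the control label, which overlapped (log2 fold change -0.37, 95% interval -0.87 to 0.12, adjusted p = 0.140, limma).

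FABP5, the epidermal form, which many carcinomas express, had 14.7, 12.1 and 13.99 FPKM under the overexpression label, against 2.60, 2.45 and 2.76 FPKM under the control label. The groups lay far apart, and FABP5 was 5.22-fold higher (log2 fold change 2.01, SE 0.084, adjusted p = 1.50e-06). It has 13 annotated pseudogenes that could share its reads. They held 215 reads under the overexpression label and 49 under the control label, beside 1512 reads of the gene itself under the overexpression label and 270 under the control label. FABP5 made 57.8% ± 1.9 of the summed level of FABP1, FABP3 and FABP5 under the overexpression label and 17.5% ± 3.3 under the control label (SD, n = 3 each, exact permutation p = 0.1). The most abundant of these binding proteins was thus FABP5 under the overexpression label and FABP3 under the control label.

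The long-chain acyl-CoA synthetases, which join fatty acids to coenzyme A, changed in sum and in make-up. All 4 genes passed, 3 higher and 1 lower, beside 76.8% of all genes tested that passed. ACSL1, the form that predominates in liver, fat and heart, had 18.1, 18.3 and 18.2 FPKM under the overexpression label, against 0.869, 0.811 and 0.941 FPKM under the control label. It was 20.8-fold higher (log2 fold change 3.36, SE 0.056, adjusted p = 3.72e-08). ACSL5, the form best known from intestinal epithelium, had 12.6, 13.2 and 11.7 FPKM under the overexpression label, against 1.68, 1.73 and 1.28 FPKM under the control label. It was 7.99-fold higher (log2 fold change 2.40, SE 0.090, adjusted p = 9.67e-07). The summed level of colon epithelial markers was higher as well, though not that of KRT20, and its part in these differences was not tested. ACSL5 overlaps ZDHHC6 over 3953 bases and the antisense gene AL157786.1 over 29777 bases, both on the other strand, so some of its reads are of uncertain origin. ZDHHC6 was at 11.2 FPKM under the overexpression label and 17.2 FPKM under the control label. AL157786.1 was low, at 0.229 FPKM under the overexpression label and 0.0704 FPKM under the control label.

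ACSL4, which prefers arachidonic acid and provides the polyunsaturated phospholipids of ferroptosis, was high in both groups. It had 28.6, 29.4 and 28.6 FPKM under the overexpression label and 17.6, 16.5 and 17.3 FPKM under the control label, a 1.69-fold higher level (adjusted p = 1.44e-05, limma). ACSL3, the form of the endoplasmic reticulum and nascent lipid droplets, had 12.7, 12.02 and 12.7 FPKM under the overexpression label, against 27.1, 28.6 and 28.3 FPKM under the control label. It was 2.25-fold lower (log2 fold change -1.11, SE 0.050, adjusted p = 2.22e-06). The groups did not overlap for 80.1% of all genes tested, nor for any of these 4 genes. Their summed level was 72.1 ± 0.87 FPKM under the overexpression label and 47.6 ± 0.29 FPKM under the control label (SD, n = 3 each).

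Within that sum ACSL3 made 17.3% ± 0.74 under the overexpression label and 58.9% ± 1.3 under the control label, where it was the leading form. ACSL1 made 25.2% ± 0.23 under the overexpression label and 1.84% ± 0.13 under the control label, and ACSL5 made 17.4% ± 0.84 under the overexpression label and 3.29% ± 0.53 under the control label. ACSL4 kept the nearest shares, 40.1% ± 0.27 under the overexpression label and 36.0% ± 1.3 under the control label (SD, n = 3 each). Each of the 4 shares had an exact permutation p of 0.1, the smallest this design allows. The level of ACSL3 over that of ACSL1 was 0.686 ± 0.025 under the overexpression label and 32.2 ± 2.7 under the control label (SD, n = 3 each).

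**Figure D2:**
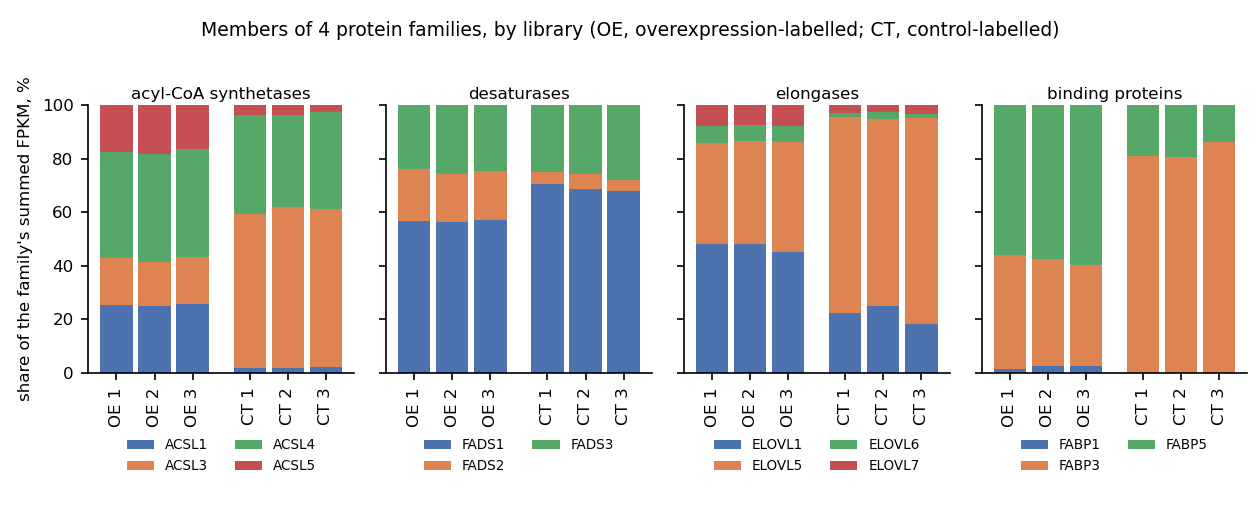
Share of each family's summed FPKM held by each gene, in percent on the vertical axis, as stacked bars for the 3 overexpression-labelled libraries (OE) on the left and the 3 control-labelled libraries (CT) on the right of each panel, for 4 families. ACSL1 holds 25.1% to 25.5% of the synthetase sum under the overexpression label and 1.71% to 1.97% under the control label, and ELOVL5 and FABP3 hold smaller shares of their families under the overexpression label.

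The promoter windows of 3 synthetase genes are shown because their levels parted most. They were taken as above, from RefSeq on GRCh38.p14, with CCAAT and GGGCGG on either strand in capitals. The windows are chr4:184825919-184826218 (minus) for ACSL1, chr10:112375018-112375317 (plus) for ACSL5 and chr2:222860786-222861085 (plus) for ACSL3.
ACSL1 promoter: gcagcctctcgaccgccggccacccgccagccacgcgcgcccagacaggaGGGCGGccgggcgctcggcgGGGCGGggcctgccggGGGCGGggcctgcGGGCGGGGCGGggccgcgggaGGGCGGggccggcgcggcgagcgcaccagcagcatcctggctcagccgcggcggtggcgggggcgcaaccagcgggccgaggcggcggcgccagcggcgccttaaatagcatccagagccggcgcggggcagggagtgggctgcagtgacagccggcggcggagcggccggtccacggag
ACSL5 promoter: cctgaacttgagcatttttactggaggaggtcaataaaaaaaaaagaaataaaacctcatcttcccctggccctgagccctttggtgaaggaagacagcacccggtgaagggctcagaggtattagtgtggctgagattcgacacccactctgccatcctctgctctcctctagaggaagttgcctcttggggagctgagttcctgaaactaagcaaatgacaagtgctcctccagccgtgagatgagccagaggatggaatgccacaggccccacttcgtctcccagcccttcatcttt
ACSL3 promoter: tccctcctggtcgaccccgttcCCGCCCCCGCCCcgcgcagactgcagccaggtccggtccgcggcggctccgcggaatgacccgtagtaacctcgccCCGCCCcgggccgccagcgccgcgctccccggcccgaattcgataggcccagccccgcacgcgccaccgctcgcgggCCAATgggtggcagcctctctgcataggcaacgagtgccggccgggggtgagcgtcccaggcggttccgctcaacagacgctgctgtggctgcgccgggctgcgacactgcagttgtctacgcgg
The ACSL1 window holds 6 GC boxes, that of ACSL3 holds 3 GC boxes and 1 CCAAT, and that of ACSL5 holds neither motif. The GC content is 82.3% for ACSL1, 51.0% for ACSL5 and 74.0% for ACSL3, so the 2 genes that were higher differ most in these letters. ACSL1 has 5 annotated starts and ACSL5 has 2, and FPKM per gene do not tell which start was used.

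Of the 4 genes of glycerolipid synthesis among the 41, 3 were lower, beside 39.3% of all genes tested, and LPIN1 did not pass. Among other acyltransferases of the path, AGPAT2 and AGPAT3 were higher and AGPAT5 and GPAT4 lower, with values given further below. DGAT1 and DGAT2, unrelated enzymes, each carry out the final step. DGAT1 had 3.18, 3.00 and 3.44 FPKM under the overexpression label, against 12.5, 12.1 and 14.2 FPKM under the control label. It was 4.04-fold lower (log2 fold change -1.73, SE 0.079, adjusted p = 2.27e-06). DGAT2 had 0.925, 1.00 and 0.878 FPKM under the overexpression label and 2.03, 1.62 and 2.12 FPKM under the control label, 2.05-fold lower (adjusted p = 0.00101, limma). Neither overlapped between groups, and DGAT1 was the more abundant in all 6 libraries. GPAM, the mitochondrial acyltransferase of the first step, had 1.98, 1.87 and 1.99 FPKM under the overexpression label and 2.46, 2.27 and 2.55 FPKM under the control label. It was 1.25-fold lower (log2 fold change -0.22, SE 0.068, adjusted p = 0.0230), a call that was lost when any overexpression-labelled library or control-labelled library 1 was left out (adjusted p from limma 0.0553 to 0.0734) with the replicate number as a block (adjusted p = 0.0555) and with FPKM rescaled to the sum of reads (adjusted p = 0.0768). LPIN1, the phosphatase that makes diacylglycerol, had 5.03, 4.63 and 5.07 FPKM under the overexpression label and 5.31, 4.45 and 6.38 FPKM under the control label. Its groups overlapped, with a log2 fold change of -0.10 (95% interval -0.38 to 0.17, adjusted p = 0.446).

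The perilipins coat lipid droplets. PLIN2, whose protein is kept only on droplets, had 5.497, 5.59 and 5.76 FPKM under the overexpression label and 5.09, 5.06 and 7.85 FPKM under the control label. The overexpression-labelled libraries lay between the control-labelled ones, of which library 3 was highest, and no direction could be given (log2 fold change -0.06, 95% interval -0.42 to 0.30, adjusted p = 0.740). PLIN3, which moves between cytosol and droplets, had 25.3, 26.0 and 25.8 FPKM under the overexpression label and 35.5, 33.6 and 37.1 FPKM under the control label. It was 1.38-fold lower without overlap (log2 fold change -0.45, SE 0.053, adjusted p = 2.47e-04).

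**Figure D3:**
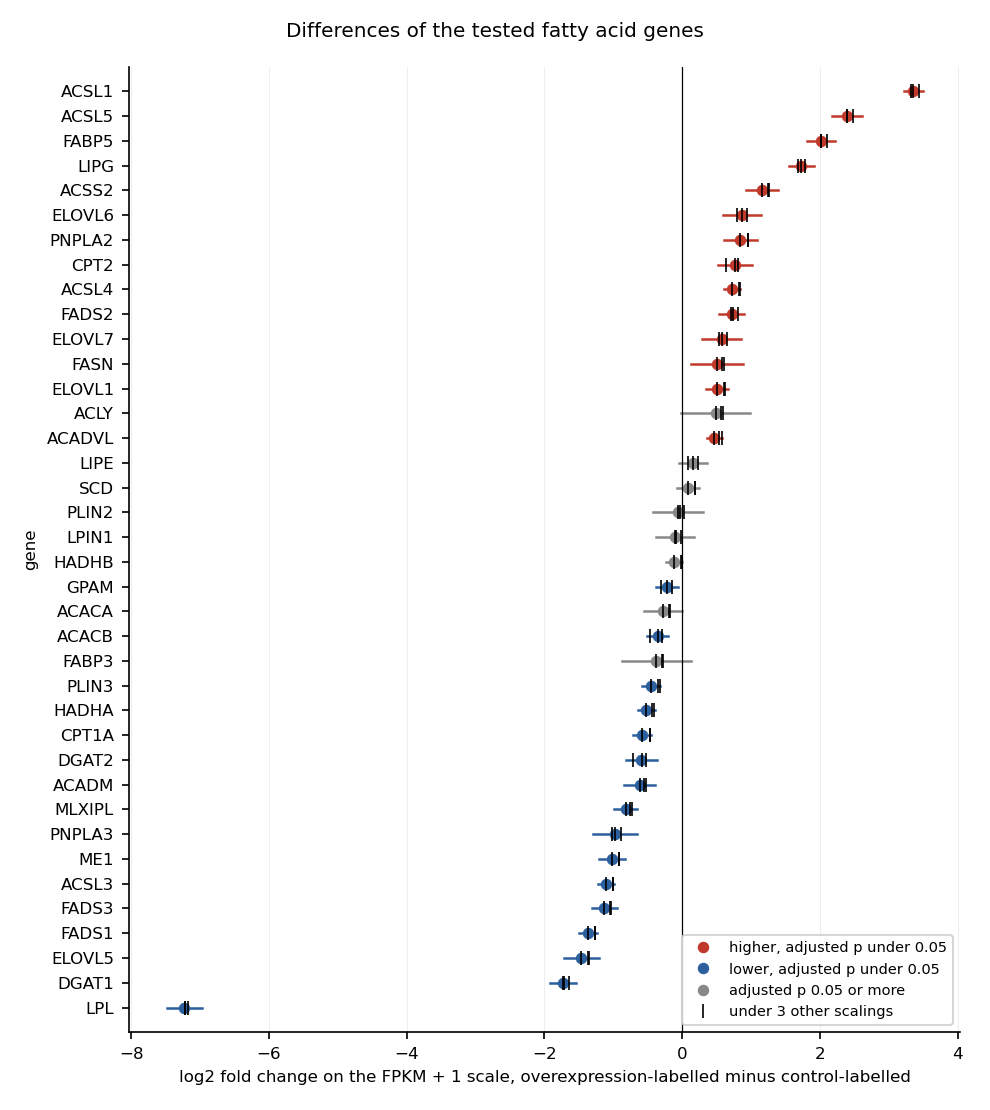
Log2 fold change of the 38 tested genes on the FPKM + 1 scale, overexpression-labelled minus control-labelled, on the horizontal axis, with the 95% interval as a line and genes down the page from the highest to the lowest value; colour gives the call and the small upright marks give the values under 3 other scalings. LPL lies at -7.23 and ACSL1 at 3.36, and the 8 genes that did not pass lie between -0.37 and 0.49.

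The lipases held the most extreme values. LPL, lipoprotein lipase (ENSG00000175445), is secreted and hydrolyses triglyceride of circulating lipoproteins, mostly in fat, muscle and heart. It had 0.142, 0.0632 and 0.0639 FPKM under the overexpression label, against 177, 176 and 137 FPKM under the control label. That is 21 reads over the 3 overexpression-labelled and 35746 reads over the 3 control-labelled libraries, a 1821-fold lower level (log2 fold change -7.23, SE 0.11, adjusted p = 2.46e-08). LPL had the highest mean of the 41 genes under the control label and was close to absent from the overexpression-labelled libraries. Of 6 adipocyte markers none reached 1 FPKM in either group, and ADIPOQ, FABP4 and CIDEA were at 0 in all 6 libraries, so the level of LPL was not accompanied by these markers. Of 7 fibroblast markers 1 under the overexpression label and 2 under the control label reached 1 FPKM. Their summed level was 1.54 to 1.67 FPKM under the overexpression label and 4.37 to 8.28 FPKM under the control label. Most of it was COL1A1, at 1.21 FPKM under the overexpression label and 4.85 FPKM under the control label. PDGFRB was 7.03-fold lower, and COL3A1, DCN and THY1 had 0 reads under the overexpression label and 28, 80 and 20 under the control label. LUM went the other way, with 29 reads under the overexpression label and 1 under the control label, and COL1A2 had 3 reads in each group. The endothelial markers did not move together: ESAM was lower and VWF higher under the overexpression label, KDR was at 0 in all 6 libraries, and CDH5 was at 0 under the overexpression label with 42 reads under the control label.

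LIPG, endothelial lipase (ENSG00000101670, chromosome 18, 49560699 to 49599182, plus strand, GRCh38), is of the same family and acts mainly on phospholipids of high-density lipoprotein. It had 2.21, 2.33 and 2.43 FPKM under the overexpression label, 1634 reads in all, and 0 reads in each control-labelled library. Set against 3 reads for the group it was at least 507-fold higher (adjusted p = 2.00e-06, limma). LPL and LIPG were thus near exclusive between the groups, each found almost entirely where the other was not. The LIPG window, chr18:49561807-49562106 (plus, from RefSeq on GRCh38.p14), is shown because the gene was found in 1 group only, with its CCAAT in capitals.
LIPG promoter: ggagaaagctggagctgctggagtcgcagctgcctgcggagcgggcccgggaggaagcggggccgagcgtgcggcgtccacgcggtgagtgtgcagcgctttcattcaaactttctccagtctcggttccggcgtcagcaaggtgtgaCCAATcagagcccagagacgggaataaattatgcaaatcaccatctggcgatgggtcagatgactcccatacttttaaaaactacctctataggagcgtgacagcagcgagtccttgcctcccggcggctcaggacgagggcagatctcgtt
This window holds 1 CCAAT and no GC box.

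The cytosolic lipases changed less. PNPLA2, adipose triglyceride lipase, takes the first fatty acid from stored triglyceride. It had 27.0, 29.6 and 29.6 FPKM under the overexpression label, against 15.1, 13.7 and 18.0 FPKM under the control label, and was 1.84-fold higher without overlap (log2 fold change 0.85, SE 0.10, adjusted p = 2.44e-04). PNPLA3, a relative found on lipid droplets, had 2.21, 2.12 and 2.01 FPKM under the overexpression label, against 4.61, 6.53 and 4.38 FPKM under the control label. It was 2.45-fold lower, also without overlap (adjusted p = 5.08e-04, limma). SAMM50, on the same strand, shares 9068 bases with PNPLA3, so strand would not separate reads of that stretch. SAMM50 was at 6.45 FPKM under the overexpression label and 4.06 FPKM under the control label. LIPE, the hormone-sensitive lipase that acts on diacylglycerol, had 2.71, 2.62 and 2.63 FPKM under the overexpression label and 2.10, 2.65 and 2.10 FPKM under the control label. The groups overlapped through control-labelled library 2 (log2 fold change 0.16, 95% interval -0.047 to 0.36, adjusted p = 0.132), and without that library the log2 fold change of 0.24 passed (adjusted p = 0.0170, limma). LIPE-AS1, an antisense gene, overlaps LIPE over its whole length of 25920 bases, and the counts of overlapping genes cannot be told apart without strand. The level given for LIPE-AS1 was low, at 0.146 FPKM under the overexpression label and 0.0996 FPKM under the control label.

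Among the genes of mitochondrial oxidation 2 were higher, 3 were lower and 1 did not pass, and none changed as much as 2-fold on the log2(FPKM + 1) scale. Of all genes tested, 76.8% passed, and 31.2% passed with at least a 2-fold difference. CPT1A, the carnitine palmitoyltransferase that controls entry into mitochondria, had 17.5, 16.4 and 17.3 FPKM under the overexpression label, against 26.6, 24.6 and 26.5 FPKM under the control label. It was 1.52-fold lower (log2 fold change -0.58, SE 0.055, adjusted p = 7.93e-05). CPT1B, the muscle form, had 15, 17 and 22 reads under the overexpression label and 6, 1 and 3 reads under the control label. It lay under the filter and passed without it (log2 fold change 0.25, adjusted p = 0.00666, limma). CPT1A held 98.6% ± 0.27 of the sum of both forms under the overexpression label and 99.8% ± 0.14 under the control label (SD, n = 3 each, exact permutation p = 0.1). CPT2, the inner-membrane partner that remakes acyl-CoA inside the mitochondrion, moved the other way. It had 1.62, 1.55 and 1.51 FPKM under the overexpression label, against 0.493, 0.697 and 0.349 FPKM under the control label, and was 3.04-fold higher without overlap (log2 fold change 0.77, SE 0.10, adjusted p = 5.04e-04).

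The acyl-CoA dehydrogenases moved in opposite directions. ACADVL, for very long chains, had 93.7, 90.9 and 88.8 FPKM under the overexpression label, against 65.5, 64.4 and 67.2 FPKM under the control label, 1.39-fold higher (adjusted p = 9.17e-05, limma). ACADM, for medium chains, had 7.90, 8.44 and 8.15 FPKM under the overexpression label, against 12.1, 15.2 and 12.1 FPKM under the control label, 1.61-fold lower (adjusted p = 8.97e-04, limma). Neither gene's groups overlapped. RABGGTB, on the same strand as ACADM, shares 1379 bases with it, so strand would not separate reads of that stretch. RABGGTB was at 10.0 FPKM under the overexpression label and 23.9 FPKM under the control label. HADHA and HADHB encode the subunits of the trifunctional protein, which carries out the later steps on long chains and contains both in equal number. HADHA had 49.0, 47.7 and 47.8 FPKM under the overexpression label, against 70.6, 72.2 and 65.3 FPKM under the control label, a level 1.44-fold lower (log2 fold change -0.52, SE 0.053, adjusted p = 1.21e-04). HADHB had 22.0, 22.0 and 22.3 FPKM under the overexpression label and 24.6, 24.4 and 23.3 FPKM under the control label, without overlap but also without passing (log2 fold change -0.12, 95% interval -0.23 to -0.005, adjusted p = 0.0562). Without control-labelled library 3 HADHB passed as well, at a log2 fold change of -0.14 (adjusted p = 0.0151, limma). The level of HADHA over that of HADHB was 2.22, 2.16 and 2.14 under the overexpression label, against 2.88, 2.96 and 2.81 under the control label, so the subunits' transcripts did not keep 1 ratio.

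HADHA and HADHB start 307 bases apart in RefSeq and are transcribed away from each other on chromosome 2, and their gene spans in the annotation of the table overlap by 1557 bases. The HADHB window is shown because it holds much of both promoters. It is chr2:26244689-26244988 (plus, from RefSeq on GRCh38.p14), and capitals mark the 194 bases that also lie in the HADHA window on the other strand.
HADHB promoter: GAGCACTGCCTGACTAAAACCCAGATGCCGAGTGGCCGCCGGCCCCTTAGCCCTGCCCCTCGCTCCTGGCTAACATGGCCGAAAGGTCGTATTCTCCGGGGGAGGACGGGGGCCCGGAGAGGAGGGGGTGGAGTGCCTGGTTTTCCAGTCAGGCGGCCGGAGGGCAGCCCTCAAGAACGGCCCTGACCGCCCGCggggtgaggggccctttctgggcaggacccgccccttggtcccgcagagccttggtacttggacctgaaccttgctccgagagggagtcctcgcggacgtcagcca
This window holds 2 GC boxes and no CCAAT.

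A further 104 genes of fatty acid metabolism, listed by role, were set beside these 41. Of them 75 were tested, and 24 were higher, 34 lower and 17 did not pass, so 77.3% passed, beside 76.8% of all genes tested. The genes named next had, in each list, the largest log2(FPKM + 1) changes in either direction among those that passed, and folds are again ratios of mean FPKM, which can rank genes differently. Of the 75, 11 were under 1 FPKM in 1 of the groups and passed the filter through the other, and all 11 are among those named (PPARGC1A, PPARGC1B, SCD5, CBR4, ELOVL3, SLC27A6, G0S2, BSCL2, ANGPTL4, ACADSB and EHHADH). Of 17 tested transcriptional regulators 5 were higher and 9 were lower. PPARD, a nuclear receptor for fatty acids, was 6.15-fold higher, at 25.6 ± 1.4 FPKM under the overexpression label and 4.16 ± 0.46 FPKM under the control label (SD, n = 3 each). PPARA and PPARG, receptors of the same family, went the other way without overlap, at 2.91-fold and 1.98-fold lower. They lay outside the naming rule and were added after their values were seen. PPARGC1A, a coactivator of mitochondrial oxidation, had 0 reads under the overexpression label and 3.68 ± 0.52 FPKM under the control label, at least 713-fold lower. PPARGC1B, its relative, was 3.86-fold lower, and NR1H3, the oxysterol receptor LXR alpha, was 3.07-fold lower, whereas NR1H2, LXR beta, was 1.47-fold higher and INSIG2, which retains SREBP precursors, 1.39-fold higher.

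SREBF1 and SREBF2 encode the sterol regulatory element binding proteins, the main activators of the synthesis genes, and were singled out after their values were seen. SREBF1 had 16.9, 16.3 and 17.4 FPKM under the overexpression label, against 32.4, 34.1 and 21.2 FPKM under the control label. As with ACLY and FASN, control-labelled library 3 was the lowest of its group, and SREBF1 was 1.73-fold lower without overlap (log2 fold change -0.73, SE 0.17, adjusted p = 0.00674). SREBF2 had 32.3, 30.9 and 32.9 FPKM under the overexpression label and 32.4, 30.4 and 29.3 FPKM under the control label and did not pass (log2 fold change 0.06, SE 0.056, adjusted p = 0.354). With rescaled FPKM, quantile normalization or voom SREBF2 passed, at log2 fold changes of 0.16 to 0.20 (adjusted p = 0.0101 to 0.0306, limma).

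In the list of synthesis, elongation and desaturation, 6 of 13 tested genes were higher and 5 lower. The counts of this and the next lists stand beside 37.5% higher and 39.3% lower among all genes tested. SCD5, the other human stearoyl-CoA desaturase, had 7.58, 7.33 and 7.76 FPKM under the overexpression label and 1 read in all under the control label, 1586-fold higher with a 95% counting interval of 285 to 62645. HSD17B12, a reductase of the elongation cycle, was 3.44-fold higher and CBR4, of mitochondrial fatty acid synthesis, 5.91-fold higher. ELOVL3 had 1 read under the overexpression label and 2.50 ± 1.0 FPKM under the control label (SD, n = 3), 181-fold lower with a counting interval of 32.5 to 7153. The dehydratases HACD1 and HACD2 were 2.16-fold and 1.72-fold lower. Of 8 tested genes of transport and activation, 3 were higher, up to 1.79-fold for the transporter SLC27A1, and 4 were lower, up to at least 158-fold for SLC27A6, which had 0 reads under the overexpression label. DBI, the acyl-CoA binding protein, was 1.44-fold higher. Of 8 tested genes of glycerolipid synthesis 2 were higher, AGPAT3 by 2.69-fold and AGPAT2 by 1.34-fold, and 2 were lower, AGPAT5 by 1.83-fold and GPAT4 by 1.15-fold. The call of GPAT4 was lost without any 1 overexpression-labelled library or control-labelled library 1 (adjusted p from limma 0.0585 to 0.103), with the block, and with rescaled FPKM, quantile normalization or voom, and that of SLC27A3, 1.48-fold higher, without overexpression-labelled library 2 (adjusted p = 0.0632).

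Among 8 tested genes of lipolysis and lipid droplets 2 were higher and 4 lower, beside 37.5% and 39.3% of all genes tested. MGLL, which splits monoacylglycerol and so ends the lipolysis that PNPLA2 begins, had 1.35, 1.196 and 1.13 FPKM under the overexpression label, against 18.7, 17.2 and 19.5 FPKM under the control label, 15.1-fold lower (adjusted p = 1.25e-07, limma). G0S2, an inhibitor of PNPLA2, had 3.67, 3.32 and 3.17 FPKM under the overexpression label and 1 read in all under the control label, 143-fold higher with a 95% counting interval of 25.7 to 5664. PNPLA2 and its inhibitor were therefore both higher, and the enzyme at the end of the same path was lower. BSCL2, the droplet protein seipin, was 3.76-fold higher. ANGPTL4, a secreted inhibitor of LPL, was 2.44-fold lower and LIPA, the lysosomal acid lipase, 1.49-fold lower.

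Mitochondrial and peroxisomal oxidation had 6 higher and 10 lower genes among 21 tested, beside 37.5% and 39.3% of all genes tested. EHHADH, a peroxisomal enzyme of fatty acid oxidation, had 5.74, 5.02 and 4.75 FPKM under the overexpression label, against 0.196, 0.479 and 0.559 FPKM under the control label, 12.6-fold higher (adjusted p = 6.76e-06, limma). ACADSB, for short branched chains, was 3.97-fold higher. DECR1 and ECI1, which prepare unsaturated chains for oxidation, were 3.86-fold and 2.72-fold lower. DECR2, the peroxisomal relative of DECR1, just missed the naming rule and was added after its values were seen, at 3.42-fold lower. The flavoproteins that carry electrons onward from the acyl-CoA dehydrogenases were split: ETFB was 3.22-fold higher and ETFDH was 3.91-fold lower. ETFA, the partner subunit of ETFB, was looked up after these values were seen and was 2.52-fold lower, so its level over that of ETFB was 1.27 ± 0.033 under the overexpression label and 10.4 ± 1.1 under the control label (SD, n = 3 each).

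**Figure D4:**
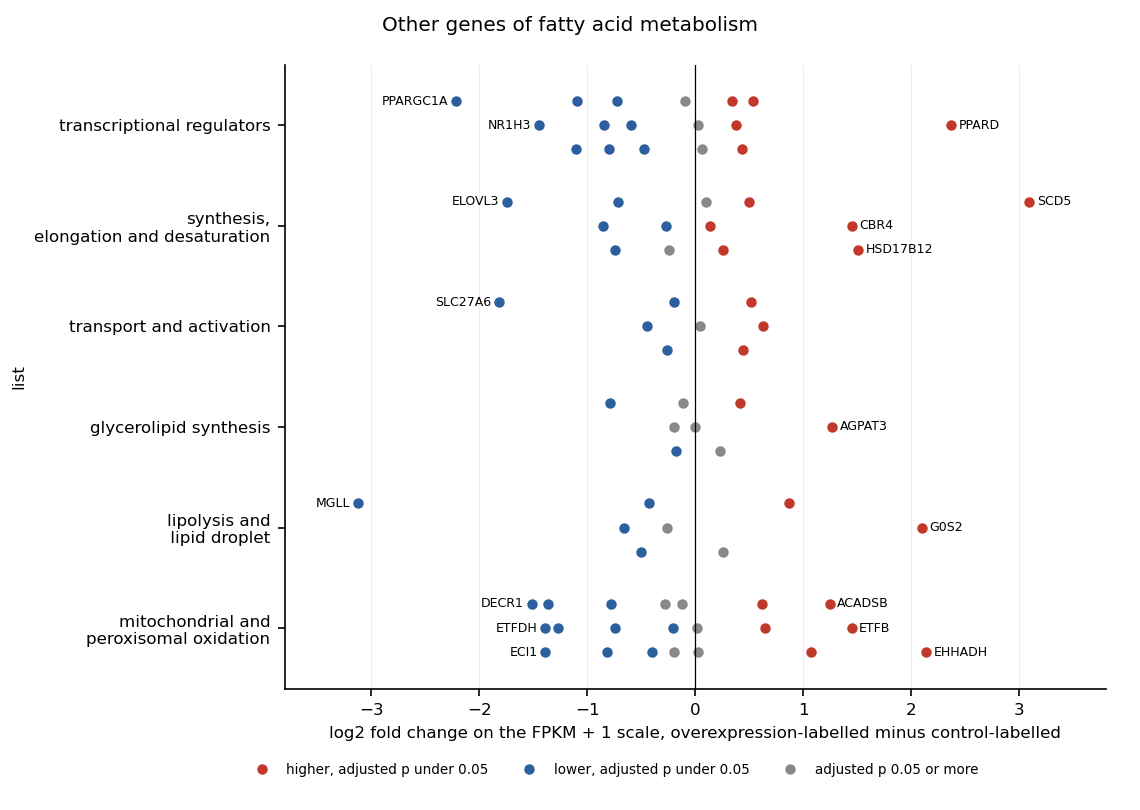
Log2 fold change on the FPKM + 1 scale, overexpression-labelled minus control-labelled, on the horizontal axis for 75 tested genes of fatty acid metabolism outside the 41, in 6 lists down the page; red points were higher and blue points lower at an adjusted p under 0.05, and grey points did not pass. Points lie on both sides of 0 in every list, from MGLL on the left to SCD5 on the right.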

How the data were processed

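The deposited table gives FPKM for every gene in the 6 libraries beside gene length, and its columns were matched to the samples by name. No aligner, counter or strand setting was given in the sources used here. The submitters' processing notes name the mouse build mm10, yet all 58735 genes matched human GENCODE 29 (GRCh38) in identifier, start, end and symbol. Multiplying FPKM by gene length gave whole multiples of 1 read for 100% of values within 0.001 read, summing to 16963075 to 17463697 reads per library. At 1 kilobase the floor of 3 reads equals 0.166 to 0.184 FPKM. The authors' denominator was 1.04 to 1.05 times the reads under the overexpression label and 0.958 to 0.995 times under the control label, so the values carry a scaling factor.

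As FPKM are not counts, genes averaging 1 FPKM or more were tested with limma 3.58.1 (R 4.3.3, mean-variance trend, two-sided) on log2(FPKM + 1), with Benjamini-Hochberg adjustment over all 13972 genes and a threshold of 0.05. The same steps were tested on simulated data in which few genes differed. That setting is unlike these data, where most genes did, so it does not cover them. Folds are ratios of mean FPKM. A group at 0 reads was set to 3 reads over the group, and with 1 to 3 reads an exact 95% Poisson interval was given. Both cover counting error only, since reads are not independent molecules. Shares within families were compared with a two-sided exact permutation test. No pair of libraries was identical, and between libraries chi-square over reads, per gene, came to 2.09 to 2.43 within the overexpression-labelled and 7.36 to 32.9 within the control-labelled group. The labels give no batch.

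The 41 genes, the 104 further genes and the tests were chosen with earlier results of these data known. Further genes were named by the largest changes past the threshold in each list, up to 3 in each direction, apart from those added after their values were seen. Overlap of the groups was not part of this rule. Alternatives changed the pseudocount, the filter on low values, the scaling, the variance model, the test, the replicate number as a block and each library left out in turn.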

Additional observations from a re-analysis of the deposited data

How the results depend on the processing

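Of the 38 tested fatty acid genes, 29 kept their direction and their side of the threshold under all 16 alternatives. The other 9 were ACLY, ACACA, FASN, SCD, GPAM, LPIN1, PLIN2, LIPE and HADHB, all with log2 fold changes of small size against their spread. PLIN2 turned to 0.034 with FPKM rescaled to the sum of reads, 0.042 with voom on the reads, and 0.12 both with array weights and without control-labelled library 3 (from -0.15 to 0.12 with each library left out in turn). LPIN1 turned to 0.010 without that library (from -0.21 to 0.010). The cause was not tested. Array weights, which passed 12517 of all genes, added ACLY, ACACA, LIPE and HADHB to the calls, and ACLY also passed with rescaled FPKM (adjusted p = 0.0423) and with voom (adjusted p = 0.0209). With a filter at a mean of 5 FPKM fewer genes were tested, so that 6218 of 7796 genes passed, and of the further pathway genes 13 were higher and 22 lower of 44 tested. With each library left out in turn, 9909 to 11099 of all genes passed, 13 to 16 of the fatty acid genes were higher and 15 to 18 lower, 20 to 25 of the further genes were higher and 31 to 37 lower, and the log2 fold change of DDX39B was -1.44 to -1.31. Recomputing FPKM on the sum of reads moved the median log2 fold change of all genes by 0.096 and voom by 0.10, and no direction of a called gene among the 38 turned with them. Without a filter 15105 of 33913 genes passed (44.5%), since most added genes had few reads. No share within a family changed sign with a library left out.

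The replicate numbers did not pair the libraries: deviations of libraries with the same number correlated at -0.0059, -0.022 and 0.0075. With the replicate number as a block 10506 of all genes passed, and 14 fatty acid genes were higher and 15 lower, with the call of GPAM lost (adjusted p = 0.0555). Of the further genes 23 were higher and 32 lower, with the call of GPAT4 lost (adjusted p = 0.0634). CD36, FABP1 and CPT1B had at most 27 reads in any library and lay under the filter on low values, without which FABP1 and CPT1B passed and CD36 did not.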
